A study of Mus musculus with 4 samples.

Results

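Hox genes encode homeodomain transcription factors that lie in 4 clusters, Hoxa, Hoxb, Hoxc and Hoxd. The probe sets described here are those whose only gene symbol in the platform annotation is Hox, a cluster letter and a number from 1 to 13. This rule found 48 probe sets for 33 genes, among 34945 probe sets for 18193 genes with a single symbol: 9 Hoxa, 9 Hoxb, 7 Hoxc and 8 Hoxd genes. Of the 39 Hox genes in the RefSeq table, 6 had no such probe set and are not analysed here. Epithelial cells were cut by laser from 10 µm sections of proximal colon and of ileum from C57/Bl6 mice, which were either control animals (called wild type in the labels) or germ-free animals, raised without microbes. Each region in each state gave a single array, so there are 4 groups and 4 arrays, each hybridised with RNA from about 16000 cells pooled from 4 mice, about 4000 from each. Staining of the sections with hematoxylin is mentioned for the germ-free samples only. With single arrays there is no replicate check of any difference, no p-value can be given, and precision is limited by the number of arrays.

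During development Hox genes are switched on in the order in which they lie in a cluster, so that low-numbered (anterior) genes mark the front of the body axis and high-numbered (posterior) genes its rear end. They give regions along the axis their identity, in the gut as well, where much of their expression is in the mesenchyme and nerves around the epithelium. The caudal-type factors Cdx1 and Cdx2 act upstream of Hox genes in the embryo and keep intestinal identity in the adult epithelium, while retinoic acid induces anterior Hox genes and Polycomb complexes hold silent clusters shut. Values below are quantile-normalized intensities, and a value counts as above the floor where it exceeds the pooled median of all arrays, 62.4. Lower values were set to the floor before differences were taken, a gene counts as measured where either array of a comparison is above the floor, and a fold against a floored array is given as "at least".

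Promoter windows were examined because a run of neighbouring Hoxb genes was above the floor on every array, and those of 4 genes are shown. Hoxb4 lies in that run, Hoxb1 lies in the same cluster but was below the floor on all 4 arrays, Hoxa5 was above the floor on all 4 arrays in another cluster, and Hoxd8 was the 1 Hoxd gene above it. Each window runs from 250 bases before to 50 bases after the gene's start in RefSeq (GRCm38.p6), at chr11:96318017-96318316 (+ strand) for Hoxb4, chr11:96365508-96365807 (+) for Hoxb1, chr6:52204538-52204837 (-) for Hoxa5 and chr2:74704365-74704664 (+) for Hoxd8. Capitals mark matches, on either strand, to any of the 6 motifs named in the next paragraph.
Hoxb4: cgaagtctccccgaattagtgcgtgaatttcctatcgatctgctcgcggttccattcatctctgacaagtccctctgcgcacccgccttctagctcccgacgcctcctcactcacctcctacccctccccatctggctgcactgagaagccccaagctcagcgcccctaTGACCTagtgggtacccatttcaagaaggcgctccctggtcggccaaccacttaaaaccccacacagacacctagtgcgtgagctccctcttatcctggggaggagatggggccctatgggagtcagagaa
Hoxb1: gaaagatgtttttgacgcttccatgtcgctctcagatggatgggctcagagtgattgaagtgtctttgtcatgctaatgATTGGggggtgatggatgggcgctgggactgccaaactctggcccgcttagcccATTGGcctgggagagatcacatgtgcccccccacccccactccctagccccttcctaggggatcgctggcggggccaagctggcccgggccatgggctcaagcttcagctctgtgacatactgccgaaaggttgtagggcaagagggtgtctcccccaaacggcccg
Hoxa5: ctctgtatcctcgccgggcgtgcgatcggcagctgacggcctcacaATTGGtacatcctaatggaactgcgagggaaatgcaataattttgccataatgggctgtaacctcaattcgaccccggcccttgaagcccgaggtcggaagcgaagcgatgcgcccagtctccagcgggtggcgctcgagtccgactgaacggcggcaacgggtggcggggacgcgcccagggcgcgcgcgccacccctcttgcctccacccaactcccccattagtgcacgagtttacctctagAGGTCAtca
Hoxd8: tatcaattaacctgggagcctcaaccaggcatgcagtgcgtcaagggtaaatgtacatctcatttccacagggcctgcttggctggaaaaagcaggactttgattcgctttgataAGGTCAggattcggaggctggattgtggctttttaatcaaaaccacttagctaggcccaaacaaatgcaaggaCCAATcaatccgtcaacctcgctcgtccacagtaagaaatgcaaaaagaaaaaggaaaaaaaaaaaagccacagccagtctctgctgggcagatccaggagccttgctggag

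The motifs searched were a CDX-type site (TTTATNG), the homeodomain core TAATTA, a HOX-PBX site (TGATTNAT), the core site of retinoic acid receptors (AGGTCA), the TATA box (TATAAA) and the CCAAT box (CCAAT). CDX-type and TATA box matches can overlap each other. The RefSeq promoter table had no window for Hoxb3, Hoxb5 and Hoxb6. AGGTCA was present in the windows of Hoxb4 (81 bases before the start), Hoxa5 (42 bases after it) and Hoxd8 (135 bases before it), and also in those of Hoxc4, Hoxd3 and Hoxd10, of which Hoxd3 and Hoxd10 were below the floor on all arrays. The table had 21 windows for 19 of the 33 Hox genes, of which 6 held AGGTCA (28.6%), against 16.3% of all 32851 windows. The CCAAT box was in 12 of the 21 Hox windows (57.1%) and 37.4% of all windows. The CDX-type letters were in 0 of the 21 and in 10.9% of all windows, TAATTA in 2 of 21 and 5.29%, TGATTNAT in 2 of 21 and 3.22%, and TATAAA in 2 of 21 and 13.6%. Both Hox windows with TAATTA belong to the same gene, Hoxd11. Hox windows held a median of 15 CpG sites (4 to 45), all windows a median of 7. Those of the Hox genes above the floor had a median of 14 CpG sites and those of the other Hox genes 20.

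The germ-free colon array stood apart in its regional markers. In wild type mice 3 of 4 measured colon markers were at least 2-fold lower in ileum (Car1, Aqp8 and Slc37a2) and 2 of 3 ileum markers higher (Fabp6 and Slc10a2). Of all measured genes 5.93% were at least 2-fold lower in ileum and 6.04% higher in wild type mice, and 5.88% and 7.37% in germ-free mice. In germ-free mice 1 of 4 colon markers was lower in ileum (Car1, 12438 in colon and 32.5 in ileum) and 1 was higher (Slc37a2, 38.7 and 133), Aqp8 read 76.4 in colon and 130.5 in ileum, and the median of the 4 was 0.24 log2 for ileum against colon. The ileal bile acid binding protein gene Fabp6 read 767 in wild type and 6008 in germ-free colon, against 16920 and 18190 in ileum. The part of this in the Hox readings of the germ-free colon array was not tested, and the wild type comparison of the regions does not use that array.

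Few Hox genes gave signal in these captures, and central genes made up 7 of the 13 that did on at least 1 array. Of the 33 genes 13 were above the floor on at least 1 array (39.4%, against 68.3% of all 18193 genes) and 8 on all 4 arrays (24.2% against 54.8%). Among anterior genes (numbers 1 to 4) 4 of 10 were above the floor on at least 1 array, among central genes (5 to 8) 7 of 9 and among posterior genes (9 to 13) 2 of 14. The 8 genes above it on all 4 arrays were 2 anterior, 4 central and 2 posterior genes. By cluster it was 5 of 9 Hoxa genes, 4 of 9 Hoxb genes, 3 of 7 Hoxc genes and 1 of 8 Hoxd genes. The 4 Hoxb genes were Hoxb3, Hoxb4, Hoxb5 and Hoxb6, which are neighbours on chromosome 11, and all were above the pooled 75th percentile of 259 on at least 1 array. Hoxa5 was the only other Hox gene to pass it, on the ileum germ-free array.

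**Figure D1:**
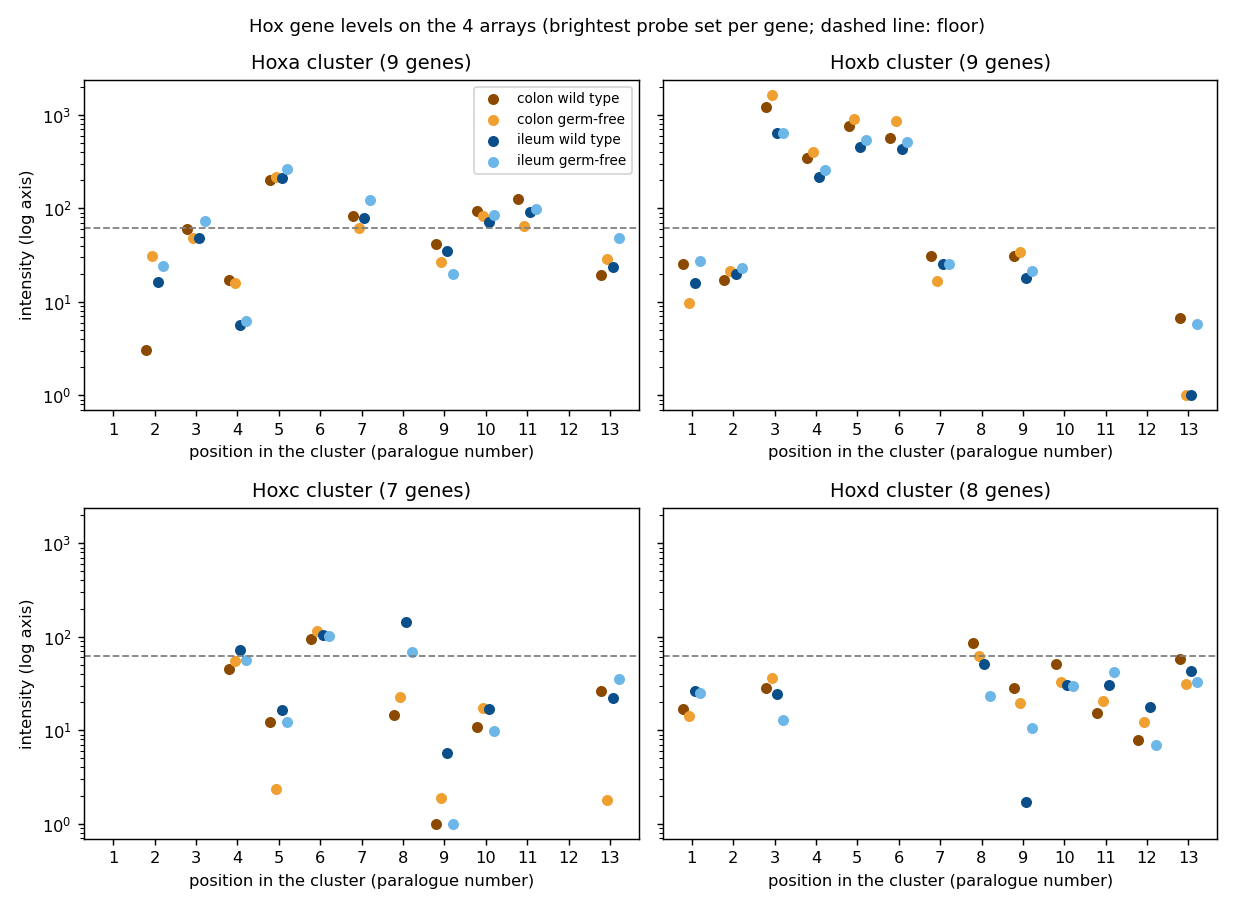
Intensity (log axis) of each Hox gene, by its brightest probe set, against its number in the cluster, with 1 point per array in 4 colours and the floor of 62.4 as a dashed line; levels of different genes come from different probe sets and only the 4 points of a gene compare. Hoxb3 to Hoxb6 lie above the floor on every array, while their neighbours Hoxb2 and Hoxb7 and nearly all genes numbered 9 to 13 lie below it.

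The other 20 genes had no probe set above the floor, over 25 probe sets between 1.0 and 57.7. They were Hoxa2, Hoxa4, Hoxa9 and Hoxa13, then Hoxb1, Hoxb2, Hoxb7, Hoxb9 and Hoxb13, then Hoxc5, Hoxc9, Hoxc10 and Hoxc13, and Hoxd1, Hoxd3, Hoxd9, Hoxd10, Hoxd11, Hoxd12 and Hoxd13. They include Hoxb13 and Hoxa13, genes of the most posterior gut, at 1.0 to 6.66 and 19.2 to 48.4. The highest was Hoxd13, a gene of the hindgut and digits, at 57.7 in colon wild type, 31.5 in colon germ-free, 43.3 in ileum wild type and 33.0 in ileum germ-free. A value below the floor is a bound on what the probe set could measure and does not show that a gene is silent.

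Hoxb3 to Hoxb6 were higher on both colon arrays than on both ileum arrays. Hoxb3, a gene of hindbrain and pharyngeal patterning, had an intensity of 1202 in colon wild type, 1641 in colon germ-free, 642 in both ileum arrays. Hoxb4, known from blood stem cells, had 345, 406, 216 and 259.9 in the same order. Hoxb5, which acts in the development of the enteric nervous system, had 766, 909, 449 and 537. Hoxb6, a marker of posterior trunk mesoderm, had 569, 865, 435 and 512. Of the 8 Hox genes above the floor on all arrays 4 had both colon arrays above both ileum arrays, against 29.2% of the 9963 genes so measured. In each of the 4 the lower colon array exceeded the higher ileum array, by most in Hoxb3 and by least in Hoxb6. The probe sets are 1456229_at for Hoxb3, 1460379_at for Hoxb4, 1418415_at for Hoxb5 and 1451660_a_at for Hoxb6, the last of a type that can match several transcripts of a gene. The RefSeq models of Hoxb3 and Hoxb4 overlap, so signal of a long Hoxb3 transcript and of Hoxb4 need not be separate.

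**Figure D2:**
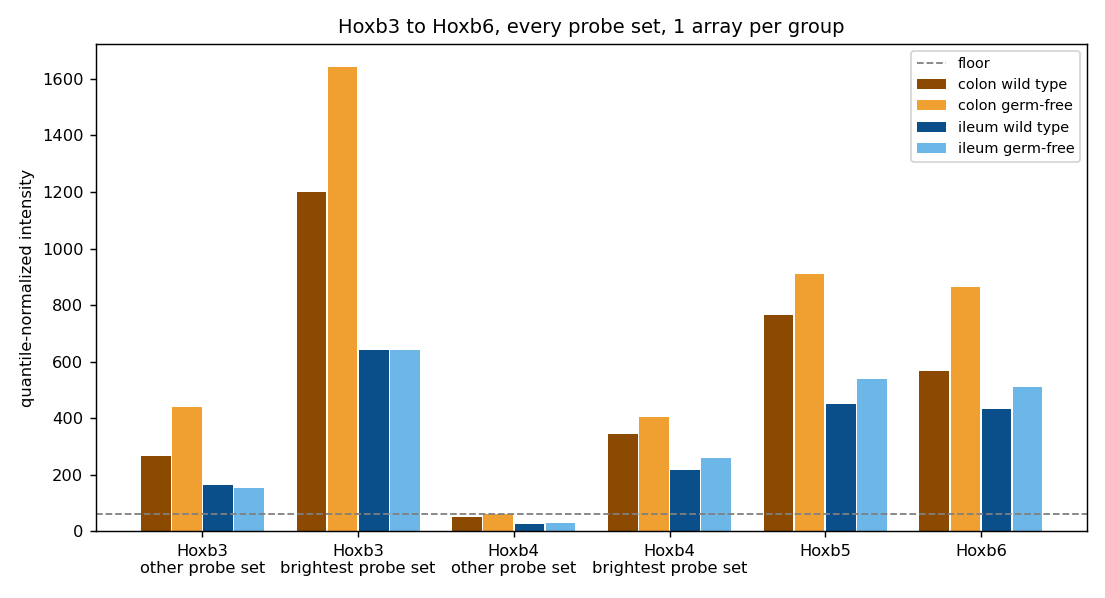
Quantile-normalized intensity (bars from 0) of every probe set of Hoxb3, Hoxb4, Hoxb5 and Hoxb6 on the 4 arrays, 1 bar per array, with the floor as a dashed line. Both colon bars exceed both ileum bars in each of the 6 probe sets, and the colon germ-free bar is the highest, at 1641 for the brightest Hoxb3 probe set.

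For ileum against colon in wild type mice, the log2 difference was -0.90 for Hoxb3 (1.87-fold lower in ileum), -0.77 for Hoxb5 (1.71-fold), -0.67 for Hoxb4 (1.6-fold) and -0.39 for Hoxb6 (1.31-fold). In germ-free mice it was -1.35 for Hoxb3 (2.56-fold lower), -0.76 for Hoxb5, -0.75 for Hoxb6 (both 1.69-fold) and -0.64 for Hoxb4 (1.56-fold). The other Hoxb3 probe set gave -0.70 and -1.52. The other Hoxb4 probe set was below the floor, at 51.4, 60.8, 24.7 and 31.0. Between the brightest probe sets of the same gene, over bright genes, such differences had an SD of 0.35 in wild type and 0.36 in germ-free mice. It is the SD for a single probe set, and the gap between a pair of probe sets spreads more widely. By their brightest probe sets the differences of all 4 genes exceeded this SD in both states, that of Hoxb6 in wild type mice by little. The SD does not hold variation of capture, amplification or hybridisation, which the probe sets of an array share. That variation and the spread between mice are unknown. With the mean of its probe sets Hoxb4 had -0.34 in wild type and -0.32 in germ-free mice, within the spread. In that mean the other Hoxb4 probe set was held at the floor on every array, which by itself draws the difference toward no change. Before flooring, that probe set read lower on both ileum arrays than on both colon arrays. With the floor at the 75th percentile Hoxb4 had -0.42 in wild type mice. All 8 values kept their sign under the other scalings, floors and probe set choices that could be run. A floor cannot turn a sign. Hoxb5 and Hoxb6 have 1 probe set each, so for these genes only the scalings could have turned it.

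Few Hox genes passed 2-fold between regions. In wild type mice 1 of 12 measured Hox genes was at least 2-fold higher in ileum (Hoxc8) and 0 were at least 2-fold lower, where 6.04% and 5.93% of all measured genes were. In germ-free mice 0 of 11 were at least 2-fold higher and 1 was lower (Hoxb3), against 7.37% and 5.88%. These counts are near the background. At a smaller threshold of 1.5-fold, chosen after the values were seen, 3 of 12 (Hoxb3, Hoxb4, Hoxb5) were lower in ileum in wild type mice, against 13.9% of measured genes, and 4 of 11 (these and Hoxb6) in germ-free mice, against 13.4%. In both states together 3 of the 10 Hox genes measured in both were at least 1.5-fold lower, against 8.44% of genes. The scaling between arrays moved the balance of all genes in germ-free mice, where 883 passed 2-fold upward in ileum and 705 downward here, 627 and 1001 in the values as deposited, and 995 and 612 with median scaling. The median of all measured genes in that comparison was 0.04 log2 with quantile scaling, 0.15 with median scaling and -0.11 in the deposited values.

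**Figure D3:**
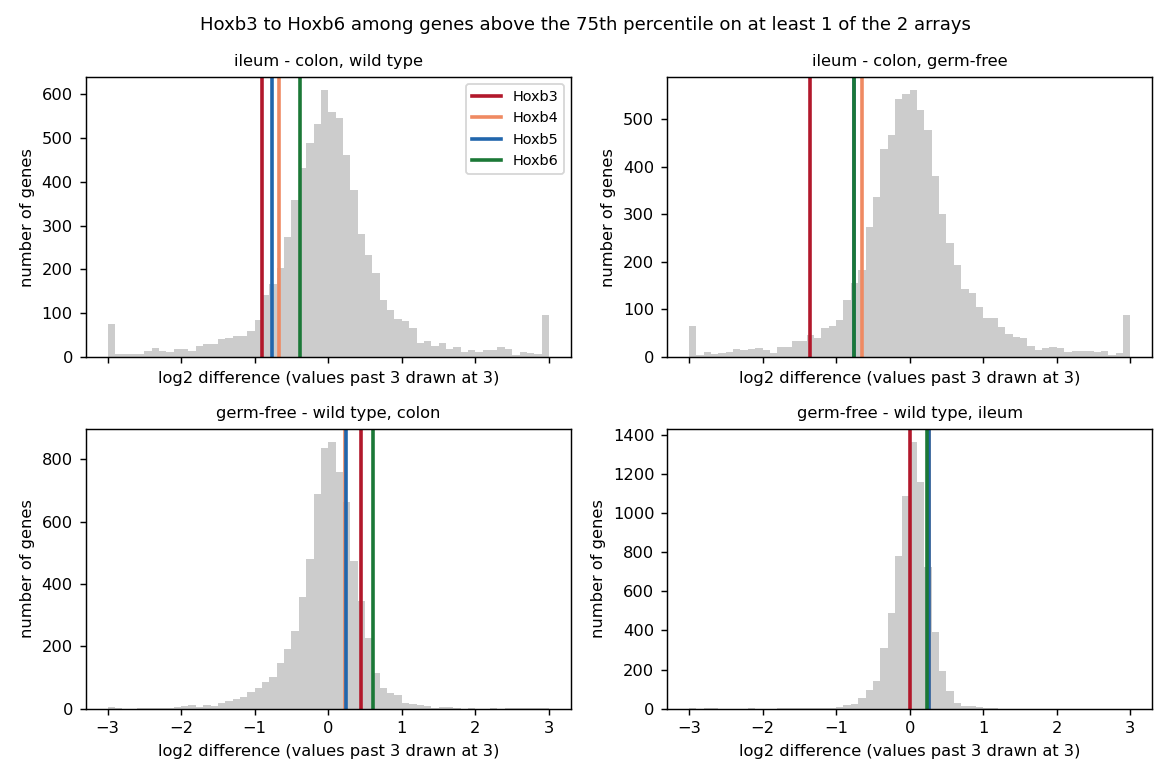
Histograms of the log2 difference of all genes above the 75th percentile on at least 1 of the 2 arrays compared (horizontal axis; number of genes on the vertical axis), with Hoxb3, Hoxb4, Hoxb5 and Hoxb6 as coloured lines, in the 4 comparisons. The lines lie left of 0 for ileum against colon (-0.39 to -0.90 in wild type, -0.64 to -1.35 in germ-free mice) and right of 0 for germ-free against wild type in colon (0.23 to 0.60).

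The germ-free colon array had the highest level of all 4 Hoxb genes. Against colon wild type the log2 difference was 0.60 for Hoxb6 (1.52-fold), 0.45 for Hoxb3 (1.37-fold), 0.25 for Hoxb5 (1.19-fold) and 0.23 for Hoxb4 (1.18-fold). The SD between probe sets of a gene was 0.30 in this comparison, so Hoxb4 and Hoxb5 lay within it, and the other Hoxb3 probe set gave 0.71. With median scaling Hoxb3 had 0.25 and Hoxb5 0.12, and in the values as deposited they had 0.51 and 0.38. In the ileum germ-free array against wild type the differences were 0.27 for Hoxb4, 0.26 for Hoxb5, 0.24 for Hoxb6 and 0.00 for Hoxb3, with an SD between probe sets of 0.23. The germ-free change in colon minus that in ileum was 0.45 for Hoxb3 and 0.37 for Hoxb6, while for Hoxb4 and Hoxb5 it was -0.03 and -0.01. Both kinds of comparison use the same 4 arrays, so these values are not separate evidence of the regional difference.

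No Hox gene was at least 2-fold higher on a germ-free array. In colon 0 of 10 measured Hox genes passed 2-fold upward and 0 downward, where 1.29% and 3.23% of all measured genes were. In ileum 0 of 12 were higher and 1 was lower (Hoxc8), where 0.23% and 0.698% were. The counts over all genes in colon were 152 higher and 379 lower here, 296 and 275 as deposited, and 116 and 528 with median scaling, with a median change of -0.01, 0.09 and -0.16.

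**Figure D4:**
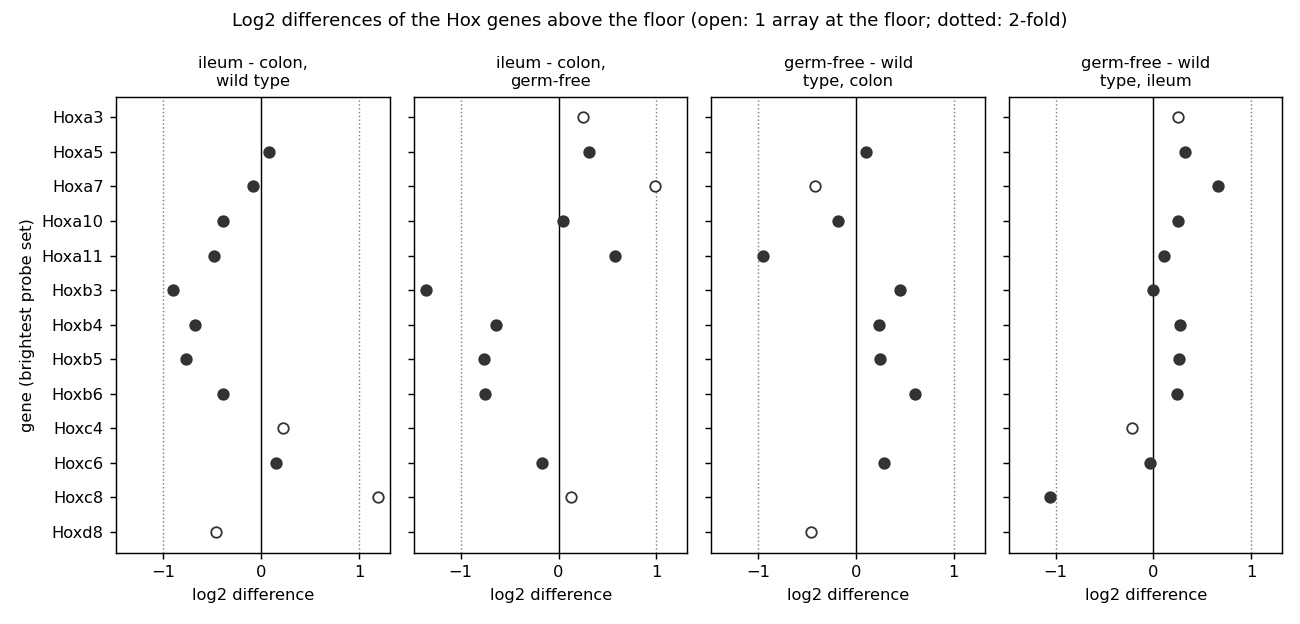
Log2 difference (horizontal axis) of each Hox gene above the floor (vertical axis), by its brightest probe set, in the 4 comparisons; filled points are differences between 2 arrays above the floor, open points are bounds with 1 array at the floor, and dotted lines mark 2-fold. The Hoxb genes lie left of 0 in both regional panels, and Hoxc8 lies past 2-fold in 2 panels.

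Hoxc8, which patterns the thoracic region, was above the floor in the ileum only. It read 14.6 in colon wild type, 22.9 in colon germ-free, 142 in ileum wild type and 68.1 in ileum germ-free. The ileum wild type array was at least 2.28-fold above the colon and 2.09-fold above the ileum germ-free array (log2 -1.06 for germ-free against wild type), while in germ-free mice ileum was at least 1.09-fold above colon. Its 1 probe set gives no second reading.

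None of the 5 Hoxa genes above the floor had both colon arrays above both ileum arrays, and except for Hoxa5 they read at most 126. Hoxa5, a regulator of gut and lung mesenchyme, read 201 in colon wild type, 214 in colon germ-free, 212 in ileum wild type and 265 in ileum germ-free, and the 4 arrays lay close together. Its difference of 0.31 log2 for ileum against colon in germ-free mice was 0.00 in the values as deposited. These readings rest on a probe set of a type that can match other transcripts, and the other Hoxa5 probe set was below the floor at 38.4, 35.4, 9.59 and 10.1. Hoxa7 read 83.3, 61.3, 78.8 and 124. Hoxa11, which acts in kidney, limb and uterus, read 126, 65.3, 90.4 and 97.5. The germ-free change in Hoxa11 was -0.95 in colon (1.93-fold lower, and -1.09 with median scaling) and 0.11 in ileum, and in Hoxa7 at least -0.42 and 0.66. Hoxa10, a gene of the lumbar axis and uterus, read 94.3, 83.1, 71.9 and 85.7, with a second probe set below the floor. Hoxa3, needed for the thymus and parathyroid, passed the floor on the ileum germ-free array alone, at 74.1 against 48.1 to 60.6 on the others, and only by 1 of its 4 probe sets. The medians over measured Hoxa genes were -0.24 (4 genes) for ileum against colon in wild type and 0.31 (5 genes) in germ-free mice. Over the 4 Hoxb genes they were -0.72 and -0.76, over all measured Hox genes -0.39 and 0.05, and over all genes -0.01 and 0.04.

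Hoxc and Hoxd genes gave low readings. Hoxc6, a gene of the thoracic axis, was above the floor on all arrays, at 94.9 in colon wild type, 116 in colon germ-free, 105 in ileum wild type and 103 in ileum germ-free, and its differences were at most 0.29 log2. A second Hoxc6 probe set passed the floor on the colon germ-free (75.9) and ileum wild type (64.8) arrays. Hoxc4 passed it on the ileum wild type array alone, at 73.0 against 45.7 to 56.0 on the others. Hoxd8 read 86.0 in colon wild type, 61.9 in colon germ-free, 51.2 in ileum wild type and 23.0 in ileum germ-free. Its second probe set, of a type that can match other transcripts, read 66.2, 77.6, 32.8 and 33.1. Only colon readings of Hoxd8 passed the floor. The ileum wild type array was at least 1.38-fold below colon wild type by the first probe set and at least 1.06-fold by the second.

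The 5 probe sets of antisense transcripts beside Hox genes are no members and were looked at after their values were seen, and 2 of them had larger folds between regions than the Hoxb genes. The Hoxb5os probe set read 245 in colon wild type, 351 in colon germ-free, 40.6 in ileum wild type and 61.8 in ileum germ-free, at least 3.92-fold lower in ileum in wild type and at least 5.62-fold lower in germ-free mice. A Hoxd3os1 probe set read 247.5, 242.5, 18.6 and 30.6, at least 3.96-fold and 3.88-fold lower in ileum, while the other Hoxd3os1 probe set was at 42.7 to 62.5 and both Hoxa11os probe sets were below the floor on all arrays, at 1.0 to 11.6. The Hox genes beside them, Hoxb5 and Hoxd3, were 1.71-fold lower in ileum in wild type mice and at or below the floor on all arrays (12.9 to 36.4).

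Regulators and partners of Hox genes were then read on the same arrays. Cdx1 read 932, 926, 745 and 669 in the same order (wild type then germ-free colon, wild type then germ-free ileum), and Cdx2 read 2415, 3140, 2801 and 3154. Ileum against colon, Cdx1 differed by -0.32 in wild type and -0.47 in germ-free mice and Cdx2 by 0.21 and 0.01. Of the 11 Cdx and other regional regulators listed, 7 were measured in wild type mice and 0 were past 2-fold in any of the 4 comparisons. HOX partners of the PBX, MEIS, PREP and TGIF families had 0 of 8 past 2-fold between regions in wild type and 2 of 7 lower in ileum in germ-free mice (Pbx3 and Tgif1), with 0 past 2-fold in either germ-free comparison. Between the regions in germ-free mice 5.88% of all measured genes were at least 2-fold lower in ileum. In retinoic acid signalling 1 of 7 measured genes was at least 2-fold lower in wild type ileum and in germ-free colon. Of all measured genes 5.93% and 3.23% were. The gene was Cyp26b1, which breaks retinoic acid down. It read 266 in colon wild type, 31.9 in colon germ-free, 66.4 in ileum wild type and 55.2 in ileum germ-free, 4.00-fold lower in ileum than in colon of wild type mice and at least 4.25-fold lower in colon germ-free than in colon wild type.

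Of 26 measured Polycomb and Trithorax genes, 1 was at least 2-fold higher and 1 lower in ileum in each state, and 1 was lower in germ-free colon. Of all measured genes 6.04% were higher and 5.93% lower in wild type ileum, and 7.37% and 5.88% in germ-free ileum. In germ-free colon 3.23% were lower. Phc1, a subunit of Polycomb repressive complex 1, read 304 and 341 on the colon arrays against 74.2 and 69.7 on the ileum arrays (4.10-fold and 4.90-fold lower in ileum). Its relative Phc2 read 1316 in colon wild type, 419 in colon germ-free, 921 in ileum wild type and 886 in ileum germ-free, 3.14-fold lower in the germ-free colon. Ash2l, a Trithorax subunit, was 2.18-fold higher in ileum in wild type mice. Of 19 measured genes beside the Hox clusters 0 passed 2-fold in any comparison, and of other homeobox genes 1 of 6 did, Msx1, at least 2-fold higher in ileum in germ-free mice.

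Epithelial markers were bright on all 4 arrays, with 8 of 8 above the floor and 0 past 2-fold in any comparison. Markers of other cells differed between the arrays, and Hox genes are known in several of those cells. Of 17 fibroblast and smooth muscle markers 11 were above the floor in colon wild type, 10 in colon germ-free, 15 in ileum wild type and 10 in ileum germ-free. Their summed intensity was 6326, 4919, 11780 and 5428, highest on the ileum wild type array, where Hoxb4, Hoxb5 and Hoxb6 were lowest, and Myh11 and Cnn1 were never above the floor. Hoxc8 was highest on the same ileum wild type array as these markers. Of the 15 measured, 7 were at least 2-fold higher in ileum than in colon of wild type mice, against 6.04% of all measured genes. They include Rgs5 (523 in colon and 2632 in ileum), Cald1 (182 and 900), Vim (583 and 1248) and Acta2 (1465 and 3137). The part of these markers in the Hoxc8 reading was not tested. Enteric neuron and glia markers summed to 434, 412, 481 and 445 with at most 3 of 9 above the floor, and Elavl4, Tubb3, Uchl1, Ret and S100b at or below it throughout. Endothelial markers summed to 744, 336, 531 and 531, and T cell markers to 1279, 838, 1943 and 1208. Plasma and B cell markers summed to 6419, 918, 12393 and 2685, and myeloid markers to 2066, 1929, 3462 and 2845. In the myeloid sums Lyz2 alone read 101, 68.0, 1791 and 888. The myeloid median for ileum against colon was -0.04 log2 in wild type and 0.54 in germ-free mice. Pecam1 and Vwf, Cd3d, Cd3e and Cd3g, Cd79a and Ms4a1, and Cd68, members of these lists, were at or below the floor on all arrays. Other members read well above it. Igha read 4609, 501, 7204 and 1712 in the same order, and Jchain 1549, 197, 4808 and 704. Cd8a read 374, 129, 565 and 512, Kdr 326, 116, 176 and 154, and Adgre1 472, 221, 244 and 325. Single markers did read higher in colon germ-free than in colon wild type, such as the myeloid gene Cd14 (673 and 342) and the mesenchymal gene Vim (760 and 583). Neither passed 2-fold, and the medians of their lists in this comparison were -0.40 (myeloid) and -0.51 log2 (fibroblast and smooth muscle). Adgre1 (221 and 472) and Tpm2 (171 and 601) of these lists were at least 2-fold lower. The part of these cell types in the Hoxb readings was not tested. A lower share of a cell type and less RNA per cell cannot be told apart here.

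The 5' over 3' signal of the Gapdh, Actb and pyruvate carboxylase controls, a sign of RNA quality, was lower on the germ-free arrays by log2 -0.12 to -0.48 in colon and -0.28 to -1.20 in ileum. Between the regions it differed by -0.29 to 1.46 in wild type and -0.14 to 0.38 in germ-free mice. Its part in the Hox differences was not tested.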

How the data were processed

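RNA from laser-captured epithelial cells of 4 groups was amplified (40 ng, 2 rounds) and hybridised to 1 Affymetrix mouse array per group, per the labels' protocols. The deposited values are linear probe set intensities from dCHIP2004, per the design text, and its options were not given in the sources used here. Deposited medians were 60.8 to 64.3. The 45037 probe sets that are not controls (64 controls were left out) were quantile-normalized on the log2 scale, and values under the pooled median of 62.4 were set to it. Gene names come from the platform annotation and were updated through a RefSeq table (GRCm38.p6), in which all 48 Hox probe sets matched. Of several probe sets the brightest (highest mean log2 intensity) stands for the gene. Every Hox gene with a probe set above the floor is named with its values. For each other list the rule was up to 4 genes past 2-fold whose brighter array exceeded the 75th percentile of 259, with Cdx1 and Cdx2 always. Of the cell type markers only some of the genes that met it are named, beside some at or below the floor. Pbx3, Tgif1 and Msx1 are named without meeting it. Differences are of log2 values, counted at 2-fold, with no p-value. The Hox genes, lists and marker genes were chosen with earlier results of these data known. The 7 alternatives were other scalings, floors and probe set choices. Steps were tested on simulated data, with Python 3.11.15, numpy 2.4.6, pandas 2.3.3 and matplotlib 3.10.9.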

Additional observations from a re-analysis of the deposited data

Results flagged for a closer look

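Differences in opposite directions on single arrays, none of them tested, were found in Hoxa7, Hoxa10, Hoxa11 and Hoxc6. The germ-free change in colon minus that in ileum was -1.07 log2 for Hoxa7 (-0.42 and 0.66), -1.06 for Hoxa11 (-0.95 and 0.11), -0.44 for Hoxa10 (-0.18 and 0.25) and 0.33 for Hoxc6 (0.29 and -0.04). Seen as ileum against colon, the wild type minus the germ-free difference was -1.07 for Hoxa7 (-0.08 and 0.99), -1.06 for Hoxa11 (-0.48 and 0.58), -0.44 for Hoxa10 (-0.39 and 0.05, the second -0.09 in the values as deposited) and 0.33 for Hoxc6 (0.15 and -0.17), the same 4 arrays arranged another way. All these genes read below 130 and near the floor.

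Signal above the floor also appeared in probe sets outside the comparisons. The highest readings were 351 for Hoxb5os and 247.5 for Hoxd3os1, both on colon arrays. The other Hoxd3os1 probe set reached 62.5 on the ileum wild type array. A probe set shared by Hoxd4 and Hoxd3 reached 63.7 and one shared by Hoxb8 and Hoxb7 reached 72.6, both on the colon germ-free array.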

How the results depend on the processing

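Over 280 re-computed differences of single Hox genes under the 7 alternatives, 266 stayed past 2-fold or moved by less than the SD between probe sets of a gene, 9 moved by more, 5 came to pass 2-fold and 0 lost it. For ileum against colon in germ-free mice a sign turned in Hoxa10 (0.05, and -0.09 as deposited) and Hoxa5 fell from 0.31 to 0.00 as deposited. Hoxb6 could not be recomputed when probe sets of the types that match several transcripts were left out. The floor sets how many Hox genes enter each count, and 20 of 33 lie under it. It is the pooled median and not a measured background, so weak signal and absent expression cannot be told apart there. Why the other values moved was not tested. With a floor at the 25th percentile (20.1) 27 Hox genes were above it on at least 1 array, and with one at the 75th percentile 5. With the 25th percentile 3 of 26 Hox genes passed 2-fold upward and 2 downward in ileum against colon of germ-free mice (8.66% and 6.66% of all genes so measured), and 1 and 2 of 26 in germ-free against wild type ileum (0.925% and 1.49%); the anterior median in germ-free mice was 0.02. With the 75th percentile 0 of 4 passed 2-fold upward in ileum of wild type mice (5.8%) and 0 of 5 downward in germ-free ileum (0.312%), while in germ-free mice the median of ileum against colon was -0.75 both over all measured Hox genes and over central ones. With no floor, of 33 Hox genes 4 were higher and 3 lower in ileum of wild type mice (9.83% and 9.86% of all genes), 7 and 4 in ileum of germ-free mice (12.6% and 10.2%), 1 and 4 in germ-free colon (6.76% and 8.98%), and 3 and 4 in germ-free ileum (4.87% and 5.33%). The medians of ileum against colon were then 0.67 for Hoxc and -0.27 for anterior genes in wild type and -0.18 for anterior genes in germ-free mice, and the central median of germ-free against wild type ileum was 0.01. With median scaling 1 gene (Hoxa11) was at least 2-fold lower in germ-free colon. No paired analysis was possible because each group has 1 array, and for the same reason no array could be left out.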
